A study of Mus musculus with 2 samples.

Results

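DNA replication genes and the regulators of the G1/S transition, the step from the first gap phase of the cell cycle into DNA synthesis, were examined in stimulated mouse macrophages. The 29 genes were a fixed list of symbols, and all 29 were found among the 55536 gene rows of each table. Of these, 5 serve origin licensing, 6 form the core of the MCM helicase, 3 activate that helicase, 5 belong to the polymerase, the sliding clamp and the clamp loader, 4 supply nucleotides, 1 maintains DNA methylation and 5 control the G1/S transition. The cells were macrophages differentiated in culture from the bone marrow of C57BL/6J mice, and the libraries were made from the polyadenylated RNA of whole-cell extracts. All cells had received the stimulus at 100 ng/mL for 300 min, and the labels call it Lipid A in one field and lipoprotein A in others. The series holds 1 group of 2 libraries, called biological replicates 1 and 2, which have a biosample record each and share a donor record, and it is not given whether the cultures were separate. No unstimulated cells were analysed, so the values are levels at 300 min and differences between these libraries, and none is a response to the stimulus.

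Before a cell copies its DNA, the origin recognition complex, Cdc6 and Cdt1 load rings of Mcm2 to Mcm7 onto origins, and geminin (Gmnn) blocks Cdt1 so that each origin is loaded once. Mcm10 and the GINS complex turn the loaded rings into moving helicases, and the primase and DNA polymerase alpha start new strands that are extended on the sliding clamp PCNA. Cyclin D and cyclin E with their kinases inactivate the retinoblastoma protein and release E2F factors, which drive many replication genes, whereas Cdkn1a (p21) inhibits cyclin-dependent kinases and also binds PCNA. Macrophages grown in culture divide while a growth factor is present and slow or leave the cycle when they are activated.

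E2F factors bind short GC-rich sites near the starts of many replication genes. The promoter windows of RefSeq (GRCm38.p6, the build called mm10 in the labels), from 250 bases before to 50 bases after a transcript start, were searched on both strands for exact matches to TTTGGCGC, TTTCCCGC, TTTGCCGC and TTTCGCGC. Windows were found for 23 of the 29 genes, 26 windows in all, and those of Gmnn, Mcm4, Gins1, Gins2, Ccne2 and Ccnd1 were not used here. The E2F letters stood in 10 of the 26 windows (38.5%), against 2.26% of 32851 windows of all genes and 3.94% of the windows of the genes tested between the libraries. The stretches below hold the matches that lie upstream of the start, shown because they give the sequence context of 7 genes described next. They run 5′ to 3′ on the gene's strand, and capitals mark the E2F letters. They lie at chr4:108579397-108579453 on the plus strand (Orc1), chr11:98907983-98908050 on the plus strand (Cdc6), chr8:75109326-75109397 on the plus strand (Mcm5), chr1:128359715-128359845 on the minus strand (Mcm6), chr5:138172011-138172078 on the minus strand (Mcm7), chrX:93632256-93632323 on the minus strand (Pola1) and chr17:56304098-56304165 on the plus strand (Uhrf1, the second of its windows).
Orc1: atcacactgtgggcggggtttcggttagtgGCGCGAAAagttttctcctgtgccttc
Cdc6: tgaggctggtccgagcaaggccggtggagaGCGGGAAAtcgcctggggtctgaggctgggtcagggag
Mcm5: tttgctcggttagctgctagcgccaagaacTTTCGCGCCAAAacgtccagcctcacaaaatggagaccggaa
Mcm6: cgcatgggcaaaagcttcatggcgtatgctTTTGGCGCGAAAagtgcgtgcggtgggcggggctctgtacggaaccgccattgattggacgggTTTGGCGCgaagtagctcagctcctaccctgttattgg
Mcm7: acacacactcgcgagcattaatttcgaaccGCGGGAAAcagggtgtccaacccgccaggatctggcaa
Pola1: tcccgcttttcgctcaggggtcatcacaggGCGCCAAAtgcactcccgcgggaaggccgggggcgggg
Uhrf1: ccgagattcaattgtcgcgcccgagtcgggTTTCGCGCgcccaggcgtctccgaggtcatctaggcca
Mcm6 held 3 matches, at positions -110, -106 and -47 from the RefSeq start, and the first 2 of them overlap on opposite strands. Mcm5 held 2 overlapping matches at positions -153 and -149. Cdt1 had its match after the start, at position 33, Mcm3 had matches at positions 20 and 39, Mcm7 had a second at position 17, and the match of Pclaf began at position -5. No exact match stood in the windows of Pcna, E2f1, Ccne1, Cdkn1a, Rrm2, Tk1 or Tyms. The letters CCAAT, searched on both strands, stood in 17 of the 26 windows (65.4%), against 37.4% of all windows. Of the 10 genes with E2F letters, 4 were called higher in replicate 1 and 0 higher in replicate 2 by the count comparison described below, with a median log2 ratio of 0.31. Of all 12226 tested genes, 18.2% were called higher in replicate 1 and 15.6% higher in replicate 2. Of the 12 tested genes whose windows held none, 4 were called higher in replicate 1 and 2 higher in replicate 2, with a median of 0.26.

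Expected counts, the estimated reads or fragments per gene, summed to 38078399 in replicate 1 and 63705317 in replicate 2. All 12 macrophage markers examined were at or above 1 TPM in both libraries, led by Lyz2 (lysozyme) at 10495 TPM in replicate 1 and 13567 in replicate 2. TPM is a gene's share of all transcripts after scaling to length. The libraries also differed in markers of other cells. The 15 neutrophil markers summed to 645 TPM in replicate 1 and 201 TPM in replicate 2, with S100a9 at 316 TPM in replicate 1 and 10.2 in replicate 2 and Ly6g listed at 0 in both. Csf3r, of the same list, was called higher in replicate 2, at 81.7 TPM in replicate 1 and 153 in replicate 2. The other 14 neutrophil markers summed to 564 TPM in replicate 1 and 48.8 in replicate 2. The 9 erythroid and megakaryocyte markers summed to 767 TPM in replicate 1 and 107 in replicate 2, nearly all of it Pf4, a platelet factor, at 753 TPM in replicate 1 and 105 in replicate 2, and 3 of the 9 were listed at 0 in both libraries. The 9 progenitor markers summed to 1.51 TPM in replicate 1 and 1.61 in replicate 2 and the 8 fibroblast markers to 2.33 TPM in replicate 1 and 1.61 in replicate 2, with no member of either list at 1 TPM. The 5 dendritic cell markers summed to 5.5 TPM in replicate 1 and 1.5 in replicate 2, and among 10 lymphocyte markers Cd4 alone reached 1 TPM, at 44.8 TPM in replicate 1 and 79.9 in replicate 2. The part of these cells in the differences below was not tested. In bulk RNA, fewer cells of a type and less RNA per cell cannot be told apart.

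Cdkn1a and Pcna together held 86.5% of the 29 genes' summed TPM in replicate 1 and 90.3% in replicate 2. The median gene stood at 3.94 TPM in replicate 1, against 2.25 TPM in replicate 2. At or above 1 TPM were 27 of the 29 genes in replicate 1, 19 in replicate 2 and 19 in both, against 42.4% of 22015 nuclear protein-coding genes in both. Orc1 and Cdc6 were the genes below 1 TPM in both libraries. In the second deposited quantification Orc1 had 0.73 TPM in replicate 1 and 1.41 in replicate 2.

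**Figure D1:**
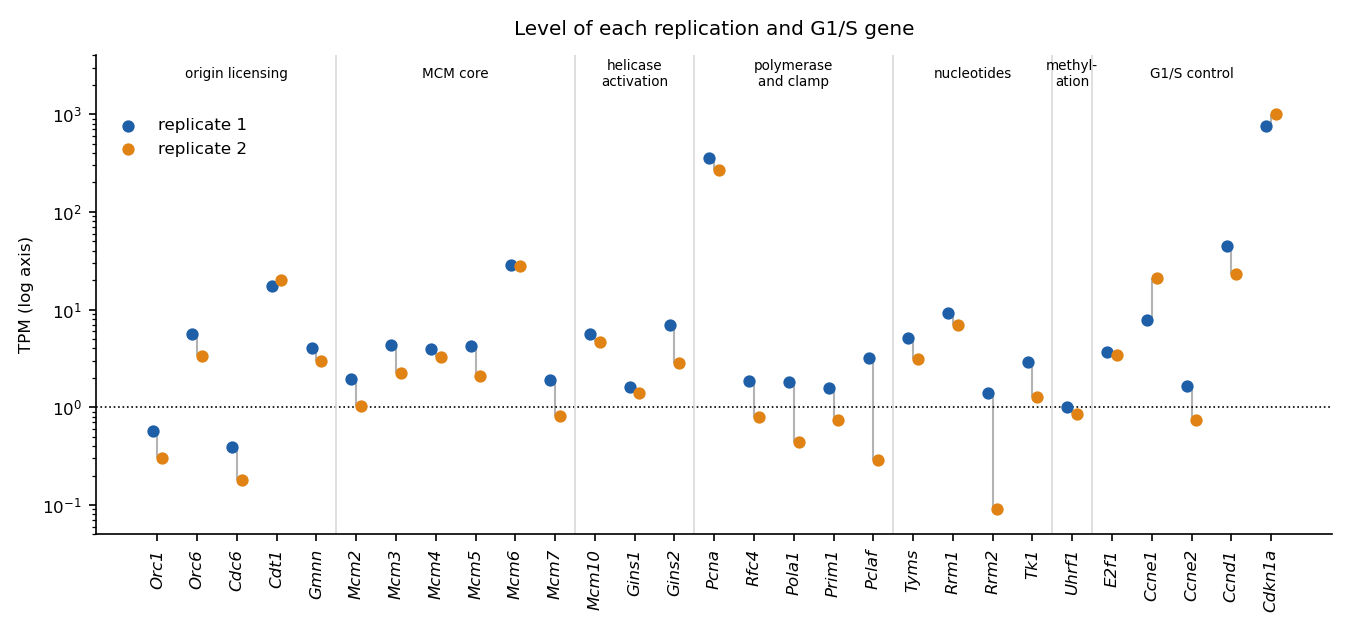
TPM of the 29 genes on a log axis, ordered by role, with replicate 1 and replicate 2 as separate points and a dotted line at 1 TPM. Cdkn1a and Pcna stand above 200 TPM in both libraries. Mcm6, Cdt1 and Ccnd1 form the next level, joined by Ccne1 in replicate 2, and Rrm2 and Pclaf show the widest gaps between the points.

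Differences between the libraries were taken from counts scaled by library size (TMM), as replicate 1 over replicate 2, so a positive log2 ratio is higher in replicate 1. A gene was called when an exact binomial test passed an adjusted p of 0.05 over 12226 tested genes and the ratio reached 1.5-fold, and intervals of a ratio are 95% Clopper-Pearson intervals. With 1 library on each side, the test and the interval cover counting error only and compare these libraries. Of the 28 genes tested, 10 were called higher in replicate 1, against a background of 18.2% of all tested genes. Another 2 were called higher in replicate 2, against a background of 15.6%, and 16 had no call. The median log2 ratio of the 28 was 0.34, against 0.01 over all tested genes. Ratios of all genes also varied with base composition. In the tenth of tested genes with the lowest GC content (31.9% to 41.6%) the median log2 ratio was 0.69, and in the tenth between 51.6% and 53.6% GC it was -0.18. With the trend on GC content and length removed, the calls were 9 higher in replicate 1 and 1 higher in replicate 2. Over all 12226 tested genes, that setting gave 1705 calls higher in replicate 1 and 1699 higher in replicate 2. Among the members, the calls of Rfc4, Ccne2 and Cdkn1a ended while one for Gins2 appeared.

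**Figure D2:**
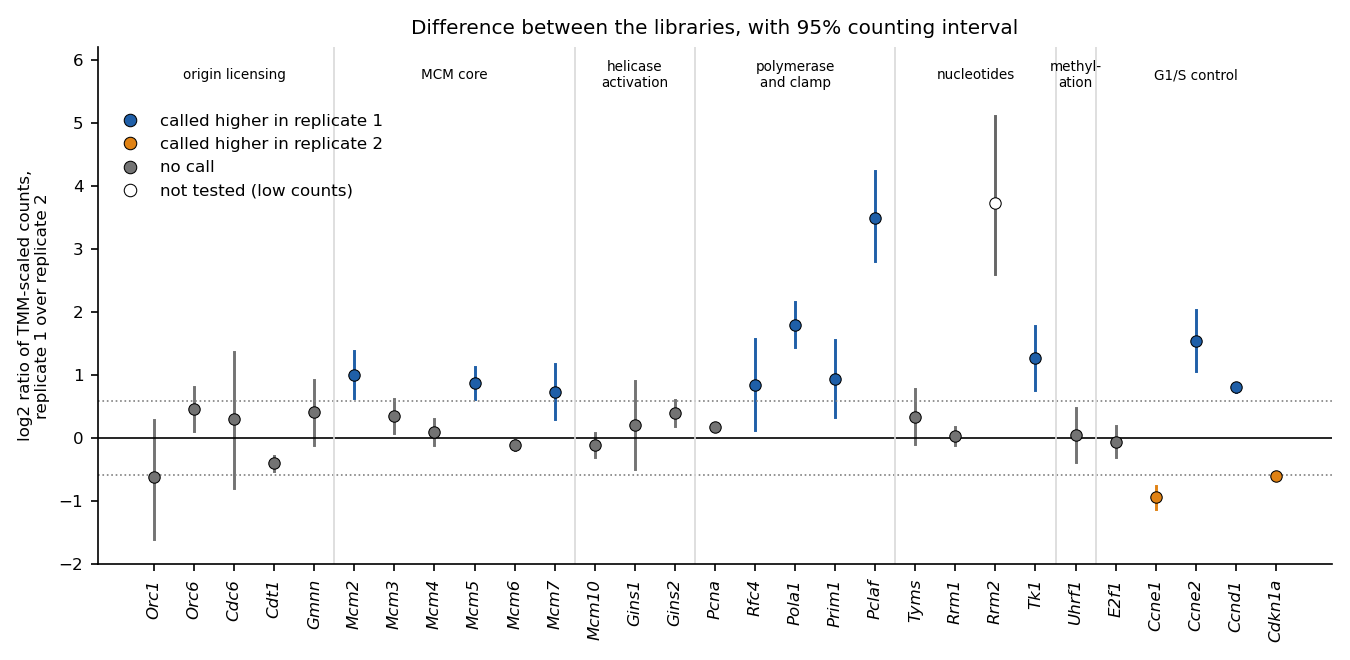
Log2 ratio (replicate 1 over replicate 2) of counts after TMM scaling for the 29 genes by role, with 95% counting intervals and dotted lines at 1.5-fold. The calls toward replicate 1 are densest among the polymerase and clamp genes, while Ccne1 and Cdkn1a are the 2 called toward replicate 2.

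Origin licensing genes ranged from barely detected to moderate, and none of the 5 was called between the libraries. Cdt1, which loads the MCM rings (chr8:122568015-122573554, mm10), led the group at 17.4 TPM (833 counts) in replicate 1 and 20.3 TPM (1622 counts) in replicate 2. Its count ratio was 0.758 (interval 0.696 to 0.825), lower in replicate 1 but short of 1.5-fold. Its inhibitor Gmnn had 4.01 TPM (63 counts) in replicate 1 and 2.97 TPM (70 counts) in replicate 2, with an interval of 0.930 to 1.89 that included 1. Cdt1 thus exceeded Gmnn by 4.35-fold in replicate 1 and 6.84-fold in replicate 2 on the TPM scale. Cdt1 overlaps Gm20388, an annotated gene on the same strand at 16.9 TPM in replicate 1 and 19.2 in replicate 2, so that reads may have been divided between them.

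Orc6, the smallest subunit of the origin recognition complex, had 5.62 TPM (137 counts) in replicate 1 and 3.33 TPM (147 counts) in replicate 2. Its ratio of 1.38 (interval 1.08 to 1.75) passed the test (adjusted p = 0.0121 by the exact binomial test) but not the fold. Orc6 overlaps Vps35 on the opposite strand, which had 113 TPM in replicate 1 and 58.5 in replicate 2. Orc1, the large ATP-binding subunit, had 0.57 TPM (15 counts) in replicate 1 and 0.30 TPM (34 counts) in replicate 2. Its TPM was higher in replicate 1 while its scaled count was lower there, since 4 of the 15 counts of replicate 1 fell on a short processed transcript that makes a large TPM from few reads. Cdc6, the loader ATPase, was the lowest of the group at 0.39 TPM (15 counts) in replicate 1 and 0.18 TPM (18 counts) in replicate 2. At these counts, gene-level ratios of Orc1 from 0.330 to 1.23 and of Cdc6 from 0.577 to 2.58 lay within the intervals, and both intervals included 1. The coding transcripts of Orc1 had 11 counts in replicate 1 and 34 in replicate 2, with an interval of the ratio of 0.218 to 0.965. That split was not stable. Coding transcripts held 28.1% of Orc1 TPM in replicate 1 and 100% in replicate 2, but 42.8% and 27.3% in the second quantification.

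The 6 subunits of the MCM ring, which are assembled in equal numbers in the protein complex, were far from equal in RNA. Mcm6 (chr1:128331590-128359664) had 28.6 TPM (1884 counts) in replicate 1 and 28.0 TPM (2990 counts) in replicate 2. The other 5 subunits ranged from 1.91 to 4.38 TPM in replicate 1 and from 0.82 to 3.29 TPM in replicate 2. Mcm6 alone made up 63.6% of the summed TPM of the 6 subunits in replicate 1 and 74.7% in replicate 2, and it exceeded the median of the other 5 by 7.25-fold in replicate 1 and 13.3-fold in replicate 2. Most of its signal came from the full-length coding transcript Mcm6-201, with 96.1% of the gene's TPM in replicate 1 and 94.4% in replicate 2. In the second quantification, coding transcripts held 99.4% of Mcm6 TPM in replicate 1 and 81.2% in replicate 2.

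Mcm6 had no call, with a count ratio of 0.930 (interval 0.877 to 0.986). Among the other subunits, 3 were called higher in replicate 1. Mcm2 had 1.94 TPM (150 counts) in replicate 1 and 1.03 TPM (110 counts) in replicate 2, a ratio of 2.01 (interval 1.56 to 2.60; adjusted p = 4.79e-08, exact binomial test). Mcm5 had 4.19 TPM (277 counts) in replicate 1 and 2.11 TPM (223 counts) in replicate 2, a ratio of 1.83 (interval 1.53 to 2.20; adjusted p = 4.11e-11, exact binomial test). Mcm7 had 1.91 TPM (97 counts) in replicate 1 and 0.82 TPM (86 counts) in replicate 2, a ratio of 1.66 (interval 1.23 to 2.25; adjusted p = 0.00115, exact binomial test). Mcm7 overlaps Cops6 on the opposite strand, at 48.7 TPM in replicate 1 and 34.5 in replicate 2, and whether the counting used strand is not given in the sources used here. Mcm3 had 4.38 TPM (223 counts) in replicate 1 and 2.25 TPM (258 counts) in replicate 2, with no call. Mcm4, another ring subunit, had 3.94 TPM (327 counts) in replicate 1 and 3.29 TPM (452 counts) in replicate 2, also with no call. The Mcm3 TPM values differed more than its count ratio of 1.28, because 11 counts of replicate 1 on the retained-intron transcript Mcm3-205 gave 29.7% of the gene's TPM there.

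The helicase activators had no calls. Mcm10, which joins the MCM ring as it starts to move, had 5.57 TPM (371 counts) in replicate 1 and 4.61 TPM (591 counts) in replicate 2, with a ratio of 0.927 (interval 0.812 to 1.06). Its retained-intron transcript Mcm10-204 had 44 counts in replicate 1 and 18 in replicate 2. The coding transcripts of Mcm10 had a log2 ratio of -0.25 (interval of the ratio 0.731 to 0.965). The split behind that ratio was not stable. Coding transcripts held 67.4% of Mcm10 TPM in replicate 1 and 88.9% in replicate 2, but 93.7% and 96.7% in the second quantification. Gins2, a GINS subunit, had 7.0 TPM (381 counts) in replicate 1 and 2.84 TPM (427 counts) in replicate 2. Its TPM differed more than its count ratio of 1.32 (interval 1.14 to 1.52), since 11 counts on the short processed transcript Gins2-202 made 32.4% of its TPM in replicate 1 and that transcript was listed at 0 in replicate 2. Gins1, another GINS subunit, had 1.63 TPM (33 counts) in replicate 1 and 1.4 TPM (42 counts) in replicate 2, and its interval of 0.712 to 1.87 included 1.

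Pcna stood far above the other replication genes of the 29. The clamp gene (chr2:132249162-132253314) had 354 TPM (10897 counts) in replicate 1 and 271 TPM (14175 counts) in replicate 2, and averaged 313 ± 58.3 TPM (SD, n = 2). It ranked 417th in replicate 1 and 542nd in replicate 2 among the 22015 nuclear protein-coding genes and exceeded Mcm6 by 12.4-fold in replicate 1 and 9.68-fold in replicate 2. The coding transcript Pcna-201 held 98.7% of the gene's TPM in replicate 1 and 99.7% in replicate 2, and the processed pseudogene Pcna-ps2 received 50 counts in replicate 1 and 74 in replicate 2. Its count ratio was 1.13 (interval 1.11 to 1.16), narrow because of the depth and well short of 1.5-fold.

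The genes that start and extend new strands around the clamp were low, and 4 of them were called higher in replicate 1. Pola1, the catalytic subunit of DNA polymerase alpha (chrX:93304767-93632155), had 1.81 TPM (219 counts) in replicate 1 and 0.44 TPM (93 counts) in replicate 2, a ratio of 3.48 (interval 2.72 to 4.48; adjusted p = 1.15e-25, exact binomial test). Prim1, the catalytic primase subunit, had 1.56 TPM (56 counts) in replicate 1 and 0.75 TPM (43 counts) in replicate 2, a ratio of 1.92 (interval 1.27 to 2.93). Rfc4, a small subunit of the clamp loader, had 1.84 TPM (39 counts) in replicate 1 and 0.79 TPM (32 counts) in replicate 2, a ratio of 1.799 (interval 1.10 to 2.97; adjusted p = 0.0228, exact binomial test). The call of Rfc4 was lost with no filter on low counts (log2 ratio 0.74, adjusted p = 0.0625 by the exact binomial test) and with the second quantification (0.66, adjusted p = 0.0557 by the exact binomial test), where the ratio stayed above 1.5-fold, and with the GC trend removed (0.54), where it did not. Rfc4 overlaps Eif4a2 on the opposite strand, which had 84.3 TPM in replicate 1 and 30.3 in replicate 2.

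Pclaf, a small PCNA-binding protein, showed the widest difference of any tested member. It had 3.18 TPM from 152 counts in replicate 1 and 0.29 TPM from 20 counts in replicate 2, a ratio of 11.2 (interval 7.01 to 18.9; adjusted p = 2.92e-38, exact binomial test). Pclaf overlaps Trip4 on the opposite strand, at 16.3 TPM in replicate 1 and 9.77 in replicate 2. Pola1 and Pclaf have transcripts with a GC content of 41.5% (Pola1) and 40.9% (Pclaf), within the range where ratios of all genes leaned to replicate 1. With that trend removed the log2 ratio of Pola1 was 1.43, against 1.77, that of Pclaf was 2.83, against 3.34, and both calls held.

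The subunits of ribonucleotide reductase, which makes the building blocks of DNA, differed in level and in their ratio. Rrm1, the large subunit, had 9.31 TPM (679 counts) in replicate 1 and 6.93 TPM (978 counts) in replicate 2, with a ratio of 1.02 (interval 0.928 to 1.13). Its partner Rrm2, the small subunit that is made in S phase, had 1.41 TPM from 63 counts in replicate 1 and 0.09 TPM from 7 counts in replicate 2. The Rrm2 ratio of 13.3 (interval 6.08 to 34.4) exceeded that of Pclaf, with overlapping intervals, but the 7 counts of replicate 2 left it below the filter on low counts, so it was not among the genes tested. With no filter it was called higher in replicate 1, at a log2 ratio of 3.29. Rrm1 exceeded Rrm2 by 6.60-fold in replicate 1 and 77.0-fold in replicate 2 on the TPM scale.

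Tk1, the salvage kinase for thymidine, had 2.89 TPM (88 counts) in replicate 1 and 1.27 TPM (54 counts) in replicate 2, a ratio of 2.41 (interval 1.69 to 3.44; adjusted p = 6.63e-07, exact binomial test). Most of that gene-level difference lay in the coding transcript. Its protein-coding counts were 56 in replicate 1 and 6 in replicate 2, a log2 ratio of 3.34 (interval of the ratio 5.95 to 39.1), while its retained-intron transcripts had 32 counts in replicate 1 and 48 in replicate 2. Coding transcripts thus held 66.8% of the Tk1 TPM in replicate 1 and 9.45% in replicate 2. In the second quantification they held 48.2% in replicate 1 and 8.01% in replicate 2. Tyms, the enzyme that makes thymidylate, had 5.07 TPM (86 counts) in replicate 1 and 3.09 TPM (100 counts) in replicate 2 with no call, and its interval of 0.940 to 1.71 included 1. Tyms TPM was led in both libraries by Tyms-205, a short transcript annotated for nonsense-mediated decay, with 66.7% of the gene in replicate 1 and 48.3% in replicate 2, and coding transcripts held 16.0% in replicate 1 and 14.9% in replicate 2.

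Uhrf1, which brings the maintenance methyltransferase to newly copied DNA, had 1.01 TPM (79 counts) in replicate 1 and 0.86 TPM (112 counts) in replicate 2. Its ratio was 1.04 (interval 0.771 to 1.401).

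The G1/S regulators were the members with calls in both directions. Cdkn1a, the p21 inhibitor (chr17:29090976-29100727), was the highest of all 29 genes at 750 TPM (30614 counts) in replicate 1 and 1002 TPM (68609 counts) in replicate 2, and averaged 876 ± 178 TPM (SD, n = 2). It ranked 170th in replicate 1 and 112th in replicate 2 among nuclear protein-coding genes, and Cdkn1a-201 held 99.4% of its TPM in replicate 1 and 99.5% in replicate 2. Its count ratio of 0.659 (interval 0.650 to 0.668) was lower in replicate 1 and called, but its log2 ratio of -0.60 lay close to the 1.5-fold line. That call was lost at -0.42 with total counts as library sizes, at -0.44 with the GC trend removed and at -0.42 with the ratio of TPM. Cdkn1a exceeded Pcna by 2.12-fold in replicate 1 and 3.69-fold in replicate 2.

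The cyclin E genes were called in opposite directions. Ccne1, cyclin E1, had 7.85 TPM (330 counts) in replicate 1 and 20.97 TPM (932 counts) in replicate 2, a ratio of 0.523 (interval 0.460 to 0.593; adjusted p = 1.58e-25, exact binomial test). Ccne2, cyclin E2, had 1.66 TPM (110 counts) in replicate 1 and 0.74 TPM (56 counts) in replicate 2, a ratio of 2.90 (interval 2.08 to 4.07; adjusted p = 5.46e-11, exact binomial test). Ccne1 exceeded Ccne2 by 4.73-fold in replicate 1 and 28.3-fold in replicate 2 on the TPM scale. Part of the Ccne1 TPM in replicate 2 came from Ccne1-204, a coding fragment of 608 bases, which was listed at 0 in replicate 1 and had 142 counts and 45.3% of the gene's TPM in replicate 2. The longer Ccne1-201 had 328 counts in replicate 1 and 785 in replicate 2.

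Ccne2 also changed its leading transcript. Ccne2-202 had 86 counts in replicate 1 and 6 in replicate 2, and Ccne2-201 had 24 in replicate 1 and 48 in replicate 2. At 35.1%, its leading transcript has the lowest GC content of the 29 genes, and with the GC trend removed its log2 ratio was 0.37, against 1.497, and the call was lost. Ccne2 overlaps Ints8 on the opposite strand, at 29.1 TPM in replicate 1 and 14.3 in replicate 2.

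Ccnd1, cyclin D1 (chr7:144929931-144939925), which couples growth factor signals to the cycle, had 44.3 TPM (3581 counts) in replicate 1 and 23.2 TPM (3027 counts) in replicate 2. Its ratio of 1.75 (interval 1.66 to 1.83) was called, with the highest counts among the genes called higher in replicate 1. Ccnd1 overlaps LTO1 on the opposite strand, at 28.5 TPM in replicate 1 and 28.8 in replicate 2. E2f1, the activating E2F factor, had 3.68 TPM (228 counts) in replicate 1 and 3.39 TPM (350 counts) in replicate 2, and its ratio of 0.962 (interval 0.810 to 1.14) showed no difference beyond counting error.

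**Figure D3:**
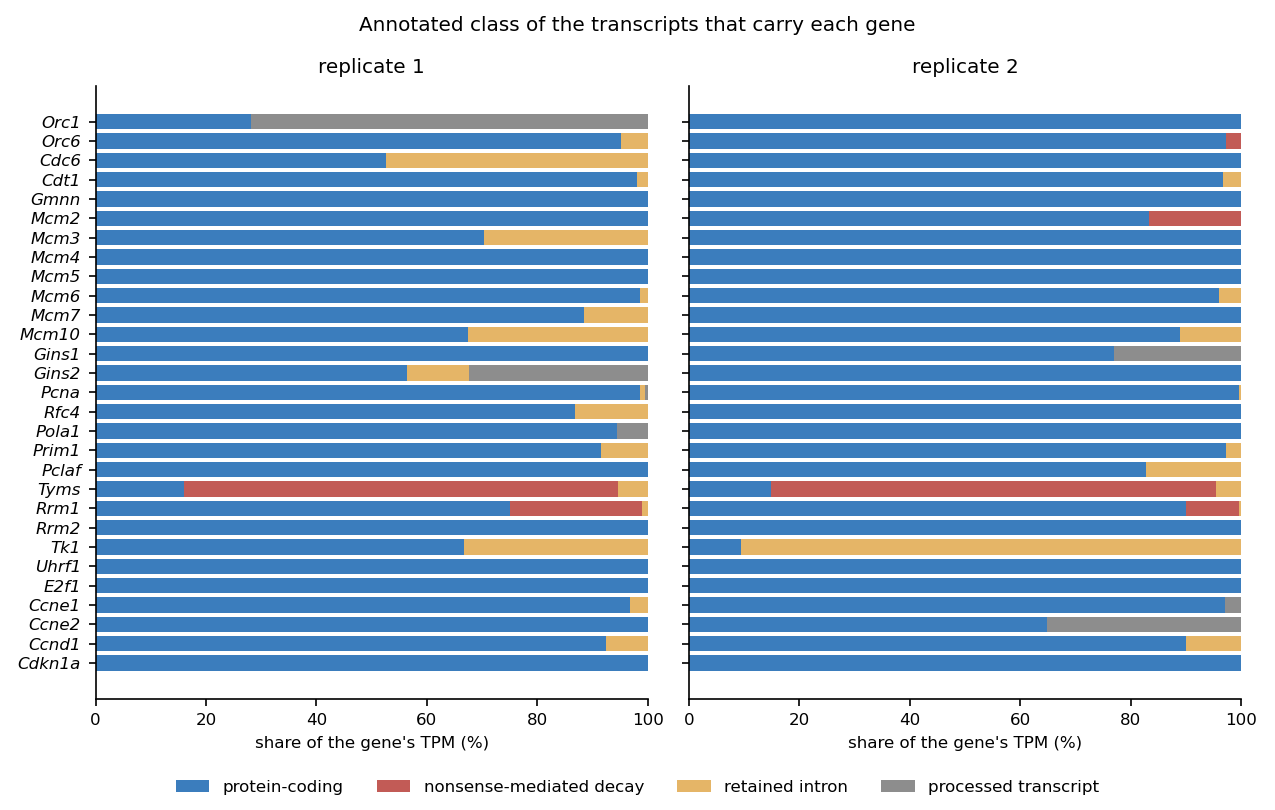
Share of each gene's TPM (percent) by annotated transcript class, replicate 1 in the left panel and replicate 2 in the right. In 14 genes coding transcripts exceed 90% in both panels, while Tyms is led by decay transcripts in both panels and Tk1 is mostly coding on the left and mostly retained intron on the right.

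All 29 genes have 2 or more annotated transcripts. The same transcript led in both libraries for 24 of them, a protein-coding one led in both for 25, and coding transcripts held over 90% of the TPM in both for 14. They held under 50% in at least 1 library for Orc1, Tyms and Tk1. In the second quantification they also held under 50% in replicate 2 for Pclaf (43.3%) and Ccne2 (40.1%). Of the 29 genes, 10 overlap another annotated gene that reached 1 TPM in at least 1 library, and those gene-level values are uncertain where reads could be shared. Overlaps on the opposite strand not named above include Gm20388 at Gins2, with 16.9 TPM in replicate 1 and 19.2 in replicate 2. Afmid at Tk1 had 2.61 TPM in replicate 1 and 0.71 in replicate 2, and AC167363.2 at Cdkn1a had 2.13 and 1.34 in the same order.

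In the cyclin D, clamp loader, origin recognition and E2F families, some other genes stood above the members. Ccnd3 lay below Ccnd1, at 8.97 TPM in replicate 1 and 18.0 in replicate 2. Orc2 lay below Orc6, at 5.45 TPM in replicate 1 and 3.01 in replicate 2. Ccnd2, cyclin D2, stood at 89.97 TPM in replicate 1 and 112 TPM in replicate 2. It exceeded Ccnd1 by 2.03-fold in replicate 1 and 4.84-fold in replicate 2. Rfc4 was at 0.117 times in replicate 1 and 0.0444 times in replicate 2 the median of the other 4 clamp loader subunits, of which Rfc3 was the highest at 45.4 TPM in replicate 1 and 48.9 in replicate 2. Orc1 was the lowest of the origin recognition subunits and Orc4 the highest, at 41.2 TPM in replicate 1 and 15.7 in replicate 2. E2f1 lay below E2f3, E2f4, E2f5 and E2f8 in both libraries, with E2f4 at 22.2 TPM in replicate 1 and 32.2 in replicate 2. E2f2, E2f6 and E2f7 lay below E2f1 in both libraries. Among inhibitors of cyclin-dependent kinases, Cdkn1a was the highest in both libraries, followed by mean TPM by Cdkn1c (p57) at 23.4 TPM in replicate 1 and 99.5 in replicate 2 and Cdkn2d at 31.3 TPM in replicate 1 and 21.8 in replicate 2, while Cdkn2a and Cdkn2b were below 1 TPM.

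**Figure D4:**
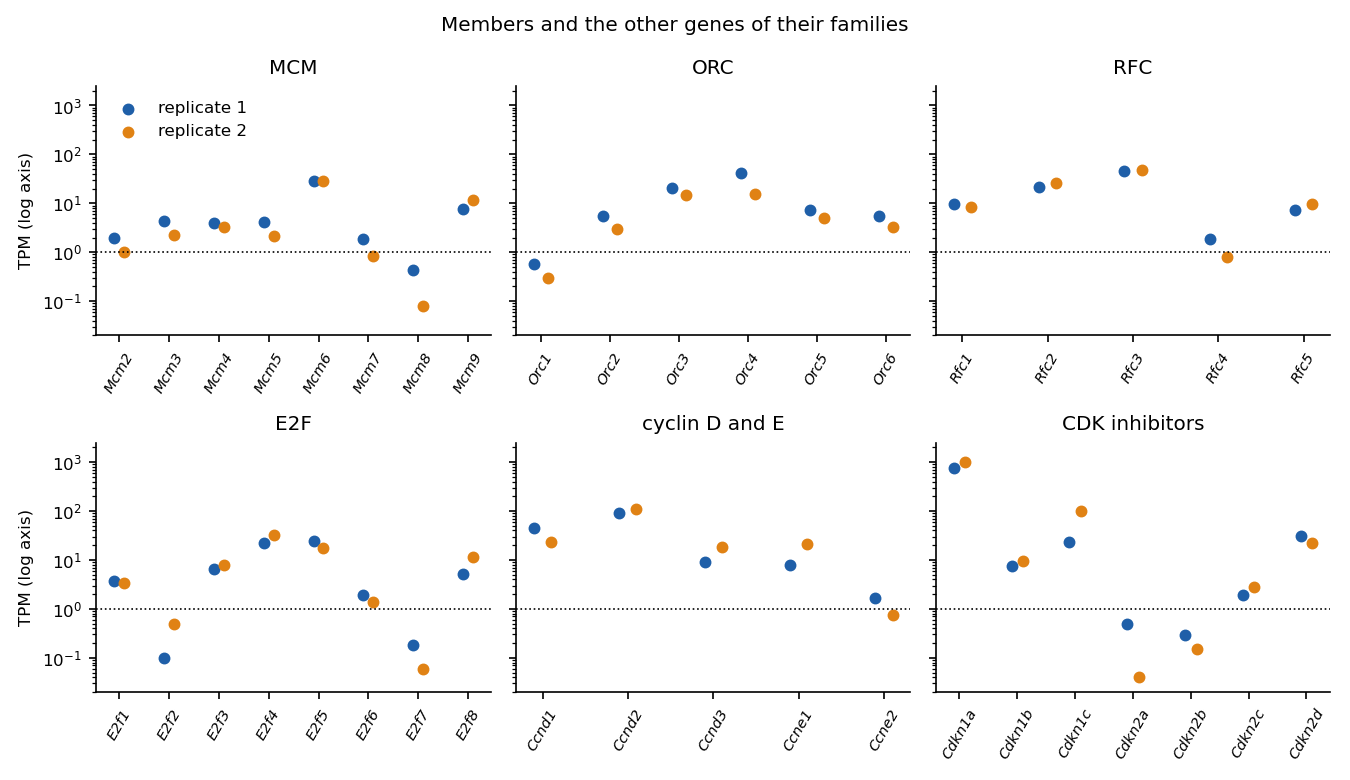
TPM on a log axis for the MCM, ORC, RFC, E2F, cyclin and CDK inhibitor families, replicate 1 and replicate 2 as separate points, with a dotted line at 1 TPM. Mcm6 stands above the other MCM genes, Orc1 and Rfc4 lie at the bottom of their families, and Cdkn1a stands at the top of the inhibitors.

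The other genes of the pathway, 91 matched in 6 lists, gave 15 calls higher in replicate 1 and 13 higher in replicate 2 among 78 tested, with a median log2 ratio of 0.07. Other licensing genes had 2 calls higher in replicate 1 and 1 higher in replicate 2 of 6 tested. Mcmbp, an MCM-binding protein, was the highest at 58.5 TPM in replicate 1 and 83.9 in replicate 2. Mcm8 was the lowest at 0.43 TPM in replicate 1 and 0.08 in replicate 2. The widest log2 ratio was at Orc4 (0.96), but with the GC and length trend removed it was -0.14 and the call was lost. Other helicase activators had 1 call of 8 tested, higher in replicate 2, which was Wdhd1, a polymerase anchor at the fork, at 7.95 TPM in replicate 1 and 11.8 in replicate 2. Gins4 was the highest of them at 13.0 TPM in replicate 1 and 14.3 in replicate 2. Other polymerase and clamp loader subunits had 4 calls higher in replicate 1 and 2 higher in replicate 2 of 21 tested, with the widest log2 ratio at Pole, the leading strand polymerase (1.38, from 1.4 TPM in replicate 1 and 0.26 in replicate 2). The partner of Pola1 in the same enzyme, Pola2, was called the other way, at 6.61 TPM in replicate 1 and 17.1 TPM in replicate 2.

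Other nucleotide supply genes had 5 calls higher in replicate 1 and 1 higher in replicate 2 of 8 tested, with a median log2 ratio of 1.14 and the widest at Dut, which removes dUTP (1.56, from 1.09 TPM in replicate 1 and 0.40 in replicate 2). Samhd1, which breaks down the nucleotides that ribonucleotide reductase makes and is abundant in macrophages, was the highest at 1744 TPM in replicate 1 and 1612 in replicate 2. It exceeded Rrm1 by 187-fold in replicate 1 and 233-fold in replicate 2. Chromatin assembly and fork genes had 4 calls higher in replicate 1 and 2 higher in replicate 2 of 14 tested, with Slbp highest by mean TPM at 21.7 TPM in replicate 1 and 17.2 in replicate 2 and Hells, a chromatin remodeler, at the widest log2 ratio (1.67). Other G1/S regulators had 0 calls higher in replicate 1 and 6 higher in replicate 2 of 21 tested, with a median log2 ratio of -0.35 and the widest at Cdkn1c (-1.78).

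The genes of G2 and mitosis, the phases after DNA synthesis, had 12 calls higher in replicate 1 and 1 higher in replicate 2 of 17 tested, with a median log2 ratio of 1.39. Ube2c, which helps the anaphase-promoting complex, had the widest log2 ratio (3.33), at 10.3 TPM in replicate 1 and 0.81 TPM in replicate 2. The single call toward replicate 2 was Tpx2, a spindle factor, at 28.2 TPM in replicate 1 and 58.3 in replicate 2, also the highest of the list. Of these 20 genes, 12 reached 1 TPM in replicate 1 and 6 in replicate 2. The 4 tested genes of this list with no call had log2 ratios near 0: Mki67 (0.01), Bub1b (-0.10), Aurka (-0.14) and Aurkb (-0.10). Among the 29 members, Pclaf (3.34) and the coding transcripts of Tk1 (3.34, from 5.91 counts in replicate 2) had log2 ratios close to that of Ube2c. Rrm2, which was not among the genes tested, had 3.29 with no filter on low counts. For Tk1 as a whole gene the log2 ratio was 1.23. At gene level those of Mcm4 (0.09), Mcm6 (-0.10), Mcm10 (-0.11), Rrm1 (0.04), Uhrf1 (0.06) and E2f1 (-0.06) were close to 0.

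Cdkn1a is a known target of p53, and the other 16 p53 targets examined had 1 call higher in replicate 1 and 2 higher in replicate 2 of 14 tested, with a median log2 ratio of 0.08. Mdm2, the p53 ubiquitin ligase, was the highest of them at 166 TPM in replicate 1 and 158 in replicate 2, and Pmaip1, a death gene, had the widest log2 ratio (1.55, from 7.29 TPM in replicate 1 and 2.40 in replicate 2). The 12 macrophage markers had 0 calls higher in replicate 1 and 4 higher in replicate 2, with a median log2 ratio of -0.42 and the widest at Cd68 (-1.34), and the 13 reference genes had 1 call in each direction with a median of -0.12. The 8 neutrophil markers tested had 6 calls higher in replicate 1 and 1 higher in replicate 2, with a median log2 ratio of 2.88.

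**Figure D5:**
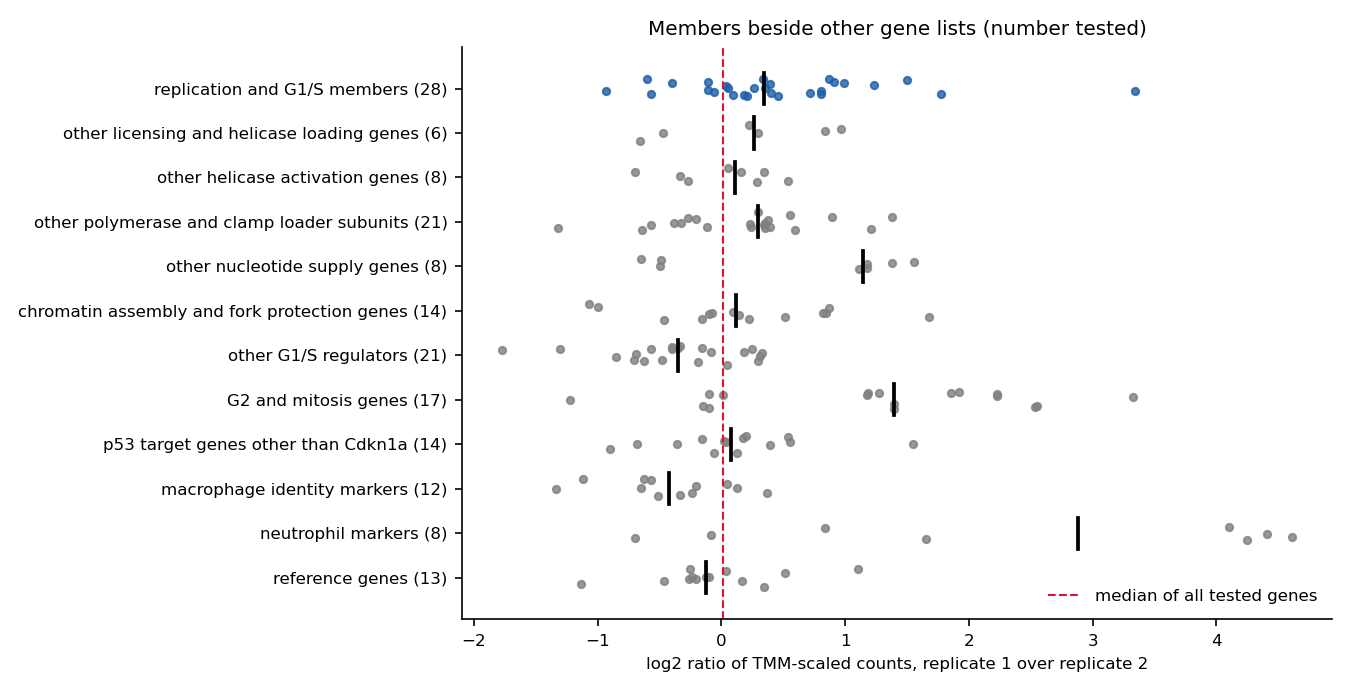
Log2 ratio (replicate 1 over replicate 2) of counts after TMM scaling for each tested gene of the 29 (Rrm2 was not tested) and of 11 other lists, with black bars at each list's median and a dashed line at the median of all tested genes. The 28 tested genes of the 29 have a median of 0.34, between the other G1/S regulators at -0.35 and the G2 and mitosis genes at 1.39.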

How the data were processed

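Polyadenylated RNA was measured in 2 libraries of 1 group, numbered as in the labels. Per the file headers and the notes deposited with them, the tables use mm10 and the GENCODE M21 annotation; no aligner, quantifier or version is given in the sources used here. The deposited expected counts are raw estimates of reads or fragments for each gene and transcript. The authors scaled the deposited TPM by transcript length to a constant library total and the deposited FPKM by length and fragment number (1 alternative), and the deposited percent column is a transcript's share of its gene's TPM. The second deposited transcript table gives another quantification. Rows that are not genes (26345 in each table) held 0.132% of counts in replicate 1 and 0.0882% in replicate 2 and were left out.

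Expected counts were rounded. Genes were kept by filterByExpr of edgeR 4.0.16 (R 4.3.3; 12226 genes) and library sizes scaled by TMM. Each gene was compared by a two-sided exact binomial test (scipy 1.17.1, tested on simulated data) with Benjamini-Hochberg adjustment, with calls needing an adjusted p under 0.05 and a ratio of 1.5-fold. Log2 ratios have a prior count of 2, and ratios of TPM a pseudocount of 0.1 TPM. A test with a spread between samples has no residual degrees of freedom for this contrast. DESeq2 1.42.0 gave alternative size factors. No p-value was made for a list. The members, gene lists (209 genes, 208 matched) and tests were chosen with earlier results of these data known. Named genes are all 29 members and, of each other list, the highest, the lowest and the one with the widest ratio; the lowest are given only where they help, and Pola2, Csf3r, Pf4, Ly6g, Cd4 and the family genes E2f3, E2f4, E2f5, E2f8, Cdkn2a, Cdkn2b and Cdkn2d were named after their values were seen. Mki67, Bub1b, Aurka, Aurkb, Ccnd3, Orc2, E2f2, E2f6 and E2f7 were also named after their values were seen. Protein sequences were not analysed here.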

Additional observations from a re-analysis of the deposited data

How the results depend on the processing

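With DESeq2 size factors or a prior count of 0.5, all 28 tested genes kept their direction and their call or lack of one. Higher in replicate 2 were 1 gene with total counts as library sizes, 1 with the GC and length trend removed, 1 with the ratio of TPM and 0 at a fold of 2, against 2. Higher in replicate 1 were 4 at a fold of 2 and 16 with the ratio of TPM, against 10. Over all genes, 2221 were called higher in replicate 1 and 1912 higher in replicate 2. At a fold of 2 they were 971 higher in replicate 1 and 642 higher in replicate 2, and with total counts 3133 and 1185 in the same order. With the ratio of TPM they were 3112 and 1716, and with the GC and length trend removed 1705 and 1699, again in that order. Total counts shifted the median log2 ratio of all tested genes to 0.19 and the TPM ratio shifted it to 0.14, against 0.01, so both lean to replicate 1. The median log2 ratio of the members ranged from 0.28 (no filter, 29 genes with Rrm2) to 0.74 (ratio of TPM), with these settings chosen for the median after the data were seen. At 5 TPM, 7 genes passed in both libraries, against 19 at 1 TPM. With TPM of the second quantification, 20 genes reached 1 TPM in both. It gave a mean TPM of 1.07 for Orc1 (against 0.435), 2.27 for Gins1 (against 1.515) and 3.24 for Tk1 (against 2.08). For Mcm10 the mean was 4.32 (against 5.09) and for E2f1 3.26 (against 3.535). Leaving out each replicate gave medians of 2.25 to 3.94 TPM and 19 to 27 genes at 1 TPM.

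Among the members, the sign turned only for genes with no call. Orc1 turned from -0.57 to 0.74 with the ratio of TPM. The others had ratios near 1: Mcm6 with total counts (0.077) and the ratio of TPM (0.028), Mcm10 with total counts (0.071), the GC trend removed (0.058) and the ratio of TPM (0.27), Pcna with the GC trend removed (-0.0050), Rrm1 with no filter (-0.031) and the GC trend removed (-0.10), Uhrf1 with no filter (-0.0082), and E2f1 with total counts (0.12), the GC trend removed (0.14) and the ratio of TPM (0.12). The cause was not tested. Calls were gained by Gins2 with the second quantification (0.72) and the GC trend removed (0.63), by Tyms with the second quantification (0.60) and by Orc6 with total counts (0.63). With the ratio of TPM, which has no test, Orc1 (0.74), Orc6 (0.74), Cdc6 (0.81), Mcm3 (0.93), Gins2 (1.27) and Tyms (0.70) passed 1.5-fold toward replicate 1. With no filter, Rrm2 was called and Rfc4 was not, so the count stayed at 10. Genes under about 100 counts, among them Orc1, Cdc6, Gins1, Rfc4 and Rrm2, are limited by depth. No paired analysis was possible because the libraries form a single group.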
